A study of Homo sapiens with 12 samples.

Results

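Described here are 10 inflammatory genes in breast cancer cells: the cytokines IL1A, IL1B, IL6, IL11 and LIF, the chemokines IL8 (now CXCL8), CXCL1, CXCL2 and CXCL3, and the inflammasome sensor NLRP3. They were chosen by name from the 23368 genes of the count table as NF-κB cytokines, chemokines and NLRP3 that were higher with the collagen mimic in MDA-MB-231 cells. The values that chose them are therefore those of the GFOGER and IKVAV libraries of MDA-MB-231 cells, and these, like all values that contain them, are given as a description without a test. The study asked how 2 breast cancer cell lines respond to integrin-binding peptides in a synthetic matrix. MDA-MB-231 cells (ER−, basal) and T47D cells (ER+, luminal A) were encapsulated at 5000 cells/µl in a hydrogel of poly(ethylene glycol) with cell-degradable crosslinks, carrying either GFOGER, a mimic of collagen, or IKVAV, a mimic of laminin, and were cultured in 3D for 3 days. There was no matrix without a peptide among the libraries used. Each replicate pooled 3 gels that had been digested with collagenase for 20 min before RNA extraction, and each condition is represented by a single established line. Read counts came from 11 libraries, 3 for each condition except the MDA-MB-231 IKVAV one, which had 2. The third MDA-MB-231 library with IKVAV, which the submitters omitted as an outlier, was not analysed here.

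IL-1α and IL-1β are alarm cytokines that signal through the receptor IL1R1 and its adaptor MYD88 to activate NF-κB, the transcription factor that drives many cytokine and chemokine genes, the IL-1 genes among them. IL-6, IL-11 and LIF share the signal transducing receptor gp130 (IL6ST) and activate STAT3, while IL-8 and CXCL1, CXCL2 and CXCL3 attract neutrophils through CXCR1 and CXCR2. NLRP3 is the sensor of an inflammasome that, with the adaptor PYCARD and the protease CASP1, processes the precursors of IL-1β and IL-18. High production of IL-6 and IL-8 is a known feature of basal breast cancer lines.

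The 4 chemokine genes lie in a cluster on chromosome 4, and IL1A and IL1B lie next to each other on chromosome 2. To show what the genes share upstream of their starts, the 250 bases before each RefSeq start site (table of GRCh38.p14) were searched on both strands for a κB-like motif, GGNNNTTCC, and an AP-1 motif, TGANTCA. Promoters were found for 9 of the 10 genes, LIF being the one without an entry. The κB-like letters were present upstream of 6 genes, IL6, IL8, CXCL1, CXCL2, CXCL3 and NLRP3, and in 17.1% of all 35116 promoters of the same length. The AP-1 letters were present upstream of 3 genes, IL1A, IL8 and IL11, and in 6.57% of all promoters. The genes were chosen as NF-κB cytokines and chemokines and were counted if any of their start sites matched. Nothing is therefore read from their numbers against these shares of single promoters. No κB-like match overlapped an AP-1 match in these genes, IL1B had neither, and a match of letters is no evidence of a bound factor. The 6 windows of 30 bases around the first κB-like match are shown first, since they are what the chemokine genes share, followed by the AP-1 windows of IL11 and IL1A. They are written 5′ to 3′ on the strand of the gene, with the matches in capitals.
CXCL1 (chr4:74735022-74735051, hg19, plus strand): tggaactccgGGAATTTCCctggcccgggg
CXCL2 (chr4:74964970-74964999, minus strand): tggagctccgGGAATTTCCctggcccggga
CXCL3 (chr4:74904465-74904494, minus strand): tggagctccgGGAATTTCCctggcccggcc
IL8 (chr4:74606185-74606214, plus strand): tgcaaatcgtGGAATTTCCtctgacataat
IL6 (chr7:22766737-22766766, plus strand): atcaaatgtgGGATTTTCCcatgagtctca
NLRP3 (chr1:247579338-247579367, plus strand; the match is on the other strand): gatcccatttGGAAAATCCagctatgtgat
IL11 (chr19:55881908-55881937, minus strand): gcagggagggTGAGTCAggatgtgtcaggc
IL1A (chr2:113542071-113542100, minus strand): acaaaaggcgaagaagacTGACTCAggctt

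CXCL1, CXCL2, CXCL3 and IL8 carried the same 9 letters, GGAATTTCC, which fit the κB-like motif on both strands. The windows of CXCL1 and CXCL2 were identical at 28 of 30 positions and those of CXCL1 and CXCL3 at 27. Each of these 3 genes held a second κB-like match, GGGCTTTCC, from 53 to 45 bases before its start. The windows of CXCL2, CXCL3 and IL1A lie wholly or mostly within the gene spans of the deposited table, and that of IL6 by its last base, since these spans begin further upstream than the RefSeq starts. The likeness of the 3 CXCL genes extends to their transcripts. Of the 51-base words in their annotated transcripts, the length of the reads, 4.27% for CXCL1, 13.0% for CXCL2 and 5.92% for CXCL3 also occurred in a transcript of another of the 4 chemokines, so that a small share of their reads could have been split between them. For IL8 that share was 0.

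Between 14338238 and 18452145 reads were counted on genes in each library. A count of 3 in a library, taken as the floor of detection, corresponded to 0.171 to 0.203 counts per 1000000 reads (cpm, after TMM normalization), and this limit covers counting error only. The libraries matched their labels: VIM was at 1435 cpm or more in every MDA-MB-231 library and at 4.95 cpm or less in every T47D library, whereas ESR1, the estrogen receptor, was at 257 cpm or more in T47D cells and at 0.797 cpm or less in MDA-MB-231 cells. One library of a condition stood apart from its replicates in 2 cases, MDA-MB-231 GFOGER replicate 3 and T47D IKVAV replicate 3. Their counts differed from those of the other replicates by a chi-square of 16.5 to 18.6 per degree of freedom, against 2.51 to 9.95 for all other pairs. For the mimics in MDA-MB-231 cells, calls on pathway genes that were gained or lost without a library are named beside the gene lists. Nothing in the labels says that replicates were separate cultures, so the p-values measure the spread between these libraries.

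In MDA-MB-231 cells, 9 of the 10 genes were higher with GFOGER than with IKVAV in every library, by 1.10-fold for CXCL1 to 11-fold for NLRP3, and IL8 was not. NLRP3 and IL1A alone differed by more than 2-fold. The median of the 10 log2 fold changes was 0.42, against 0.004 over all 14092 genes tested, and it lay between 0.37 and 0.48 when any single library was left out. All 10 genes passed the filter on low counts, NLRP3 through its GFOGER libraries. Every GFOGER library lay above every IKVAV library for 32.5% of all genes tested, and since this contrast chose the members, nothing is read from their count against it. In bulk RNA, more cells that express a gene and more RNA per cell cannot be told apart.

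**Figure D1:**
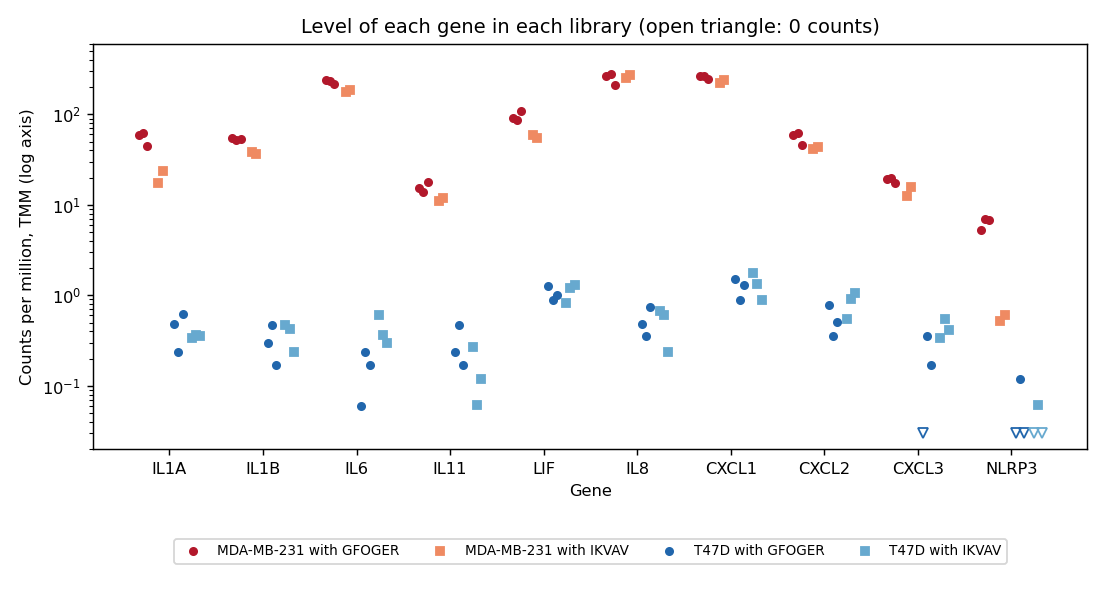
Level of each of the 10 genes (x axis) in each of the 11 libraries, in cpm after TMM normalization on a log axis; each point is a library, coloured by cell line and mimic, and open triangles at the bottom are libraries with 0 counts. All MDA-MB-231 points lie above all T47D points for every gene, and the separation of the mimics within MDA-MB-231 cells is widest for NLRP3, at 5.31 to 6.92 against 0.518 and 0.603 cpm.

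NLRP3 (chr1:247579458-247612406, hg19) showed the widest separation of the mimics. It had 93, 112 and 118 reads in the MDA-MB-231 libraries with GFOGER, equal to 5.31, 6.92 and 6.72 cpm, and 8 and 10 reads with IKVAV, equal to 0.518 and 0.603 cpm. The log2 fold change was 3.46 with a standard error (SE) of 0.326. The 3 GFOGER libraries were close to each other and far above both IKVAV libraries, although per length the gene remained the lowest of the 10, with 1.41 ± 0.194 RPKM (SD, n = 3) with GFOGER and 0.125 ± 0.0133 RPKM (SD, n = 2) with IKVAV.

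IL1A (chr2:113531492-113542971), which encodes IL-1α, was at 59.0, 62.9 and 44.6 cpm with GFOGER and at 17.6 and 23.6 cpm with IKVAV, a log2 fold change of 1.4 (SE 0.165), or 2.68-fold. The lowest GFOGER library, replicate 3, was still well above both IKVAV libraries. IL1B (chr2:113587337-113594356), its neighbour, was at 54.2, 51.6 and 52.9 cpm with GFOGER and at 38.4 and 36.8 cpm with IKVAV, a log2 fold change of 0.48 (SE 0.111). The replicates of IL1B were tight and the groups apart, but the separation was narrower than for IL1A. Per length, IL1A was the less abundant of the pair with both mimics, at 19.0 against 35.3 RPKM with GFOGER and 7.02 against 25.1 RPKM with IKVAV.

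Among the gp130 cytokines, LIF (chr22:30636442-30642796), which acts through LIFR and gp130, was at 91.5, 86.4 and 109 cpm with GFOGER and at 58.6 and 54.6 cpm with IKVAV. Its log2 fold change of 0.75 (SE 0.115) was the third of the 10. IL6 (chr7:22766766-22771621) was at 237, 236 and 215 cpm with GFOGER and at 179 and 186 cpm with IKVAV, with a log2 fold change of 0.32 (SE 0.0913). IL11 (chr19:55875757-55881814), the least abundant of the family per length, was at 15.4, 14 and 17.9 cpm with GFOGER and at 11.1 and 11.8 cpm with IKVAV, with a log2 fold change of 0.45 (SE 0.157). None of the 3 genes overlapped between the mimics. For IL11 the closest libraries across the mimics were replicate 2 of each, at 14 and 11.8 cpm.

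Of the 10 genes IL8 and CXCL1 differed least. IL8 (chr4:74606223-74609433) was at 268, 282 and 209 cpm with GFOGER and at 253 and 270 cpm with IKVAV, so the groups overlapped, and its log2 fold change was -0.05 (SE 0.114). The data thus go against the rule for IL8: it was not higher with GFOGER. Its sign rested on GFOGER replicate 3, without which the value was 0.07, and it was lowest, at -0.15, without GFOGER replicate 2.

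CXCL1 (chr4:74735109-74737019) was at 267, 263 and 244 cpm with GFOGER and at 224 and 243 cpm with IKVAV. The lowest GFOGER library and the highest IKVAV library nearly met, and the log2 fold change was 0.14 (SE 0.0899), with 0.08 without IKVAV replicate 1 and 0.20 without IKVAV replicate 2. CXCL2 (chr4:74962754-74964997) was at 59.3, 61.9 and 46.1 cpm with GFOGER and at 41.5 and 44.1 cpm with IKVAV, a log2 fold change of 0.37 (SE 0.133). CXCL3 (chr4:74902312-74904490) was at 19.1, 19.6 and 17.5 cpm with GFOGER and at 12.6 and 15.6 cpm with IKVAV, a log2 fold change of 0.40 (SE 0.15), with 0.25 without IKVAV replicate 1 and 0.56 without IKVAV replicate 2. As for IL1A and IL8, the lowest GFOGER value of the 3 CXCL genes came from replicate 3, whereas IL11 and LIF were highest in that library.

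**Figure D2:**
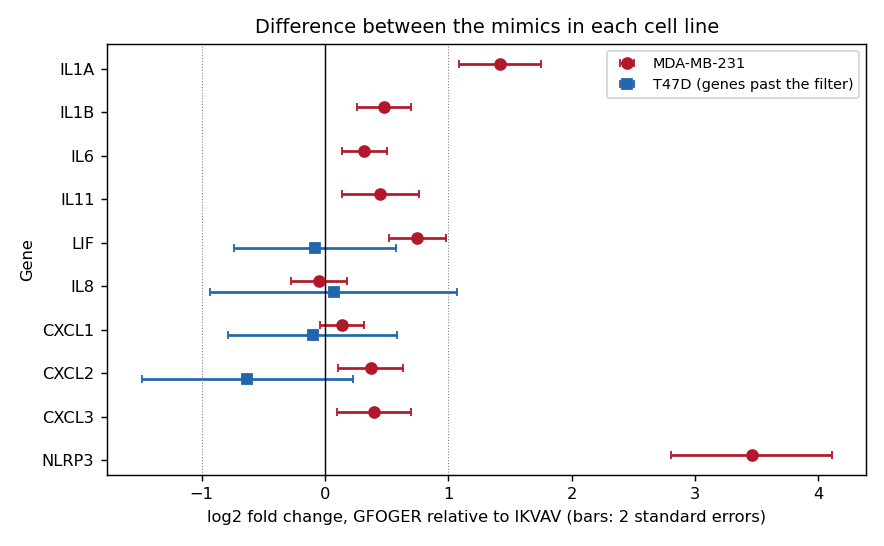
The log2 fold change of GFOGER relative to IKVAV (x axis) for each gene in MDA-MB-231 cells (red circles) and, for the 4 genes that passed the filter, in T47D cells (blue squares); bars are 2 standard errors and dotted lines mark a 2-fold difference. In MDA-MB-231 cells NLRP3 (3.46) and IL1A (1.4) lie past the 2-fold line and IL8 (-0.05) and CXCL1 (0.14) lie nearest to 0; in T47D cells, where the 4 genes were tested, all bars cross 0.

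To compare the genes with each other, levels were set per length (RPKM from the TMM-normalized counts and the gene lengths of the table). With GFOGER the order was CXCL1 (221), IL6 (194), IL8 (148), CXCL2 (46.4), IL1B (35.3), LIF (24.4), IL1A (19.0), CXCL3 (16.2), IL11 (6.69) and NLRP3 (1.41). Within this order LIF and IL1A, and IL1A and CXCL3, did not differ beyond their spread (mean ± SD). With IKVAV the order was the same except that CXCL3 (12.2) stood above IL1A (7.02), and IL6 (154) and IL8 (153), and LIF (14.4) and CXCL3, did not differ beyond their spread. The summed level of the 10 genes was 1075, 1084 and 963 cpm in the GFOGER libraries and 837 and 887 cpm in the IKVAV libraries.

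T47D cells held few reads of any of these genes, with summed levels of 4.4 to 5.92 cpm. The most reads fell on CXCL1, with 25, 15 and 23 reads with GFOGER and 26, 22 and 15 with IKVAV, and on LIF, with 21, 15 and 18 reads with GFOGER and 12, 20 and 22 with IKVAV. CXCL2 had 6 to 18 reads, IL8 4 to 13, IL1A 4 to 11, IL1B 3 to 8, IL11 1 to 8 and CXCL3 0 to 9. NLRP3 had 0, 2 and 0 reads with GFOGER and 0, 1 and 0 with IKVAV, at or under the floor throughout. Only 4 genes passed the filter on low counts, and these libraries, which did not choose the members, allow a test.

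None of the 4 differed between the mimics in T47D cells by edgeR's quasi-likelihood test. The log2 fold change of GFOGER relative to IKVAV was 0.07 for IL8 (adjusted p = 0.978), -0.08 for LIF (adjusted p = 0.954), -0.10 for CXCL1 (adjusted p = 0.946) and -0.63 for CXCL2 (adjusted p = 0.617), and 0 had an unadjusted p under 0.05. The intervals of 2 SE, -0.93 to 1.07 for IL8, -0.74 to 0.58 for LIF, -0.79 to 0.59 for CXCL1 and -1.48 to 0.23 for CXCL2, show what this depth allows. The difference between the lines was not tested for these genes. Over all 13642 genes tested in T47D cells, 0% were differentially expressed in the direction of higher with GFOGER and 0.022% in the direction of lower (adjusted p below 0.05 and more than 2-fold), a total of 3 genes, with 1531 genes at an unadjusted p under 0.05 and 8 genes by DESeq2. That total was 94 without IKVAV replicate 3, the library that stood apart. IL6 had 1, 4 and 3 reads with GFOGER and 9, 6 and 5 with IKVAV in T47D cells, the opposite order to MDA-MB-231 cells, but at a depth near the floor.

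Set between the cell lines, over the mean of both mimics, all 10 genes were higher in MDA-MB-231 cells. The log2 difference was 9.6 for IL6, 8.94 for IL8, 7.58 for CXCL1, 6.99 for IL1B, 6.38 for IL1A, 6.14 for CXCL2, 6.07 for LIF, 5.97 for IL11 and 5.83 for CXCL3. Some T47D libraries of IL1B, IL6, IL11 and CXCL3 were at or under the floor of 3 reads, so these values, and their place in the order, rest on few reads; when any single library was left out they ran from 6.84 to 7.20, 9.42 to 9.80, 5.79 to 6.30 and 5.56 to 6.31. For NLRP3 the reads themselves are given in place of a fold, 8 to 118 in MDA-MB-231 libraries against 0 to 2 in T47D libraries. No library of one line overlapped a library of the other for any of the 10 genes. The share of all genes without such overlap was not counted, so nothing is read from this. By the adjusted p alone, 12947 of all 15320 genes tested differed between the lines. Of all 15320 genes tested, 23.7% were called higher in the MDA-MB-231 line than in T47D by more than 2-fold and 22.6% were called lower, and as the choice of the members used the MDA-MB-231 libraries, their own differences are again a description.

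The genes around them in the same pathways were taken from 7 lists: NF-κB subunits and inhibitors, other cytokines and chemokines, other NF-κB targets, receptors and decoys of the members, inflammasome components, IL-6 family ligands and STAT3 signaling, and regulators of cytokine mRNA decay. Of the 158 genes listed, 157 were in the table and 131 were tested in MDA-MB-231 cells. Here 6 rose with GFOGER relative to IKVAV and 7 fell, that is 4.58% and 5.34%, against 3.12% and 6.46% of all genes tested. The pathway genes thus changed in both directions at shares near those of all genes, and each list had a median log2 fold change between -0.13 and 0.08. In T47D cells 0 of 108 pathway genes tested differed by edgeR's quasi-likelihood test and 0 by DESeq2, with 18 at an unadjusted p under 0.05.

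**Figure D3:**
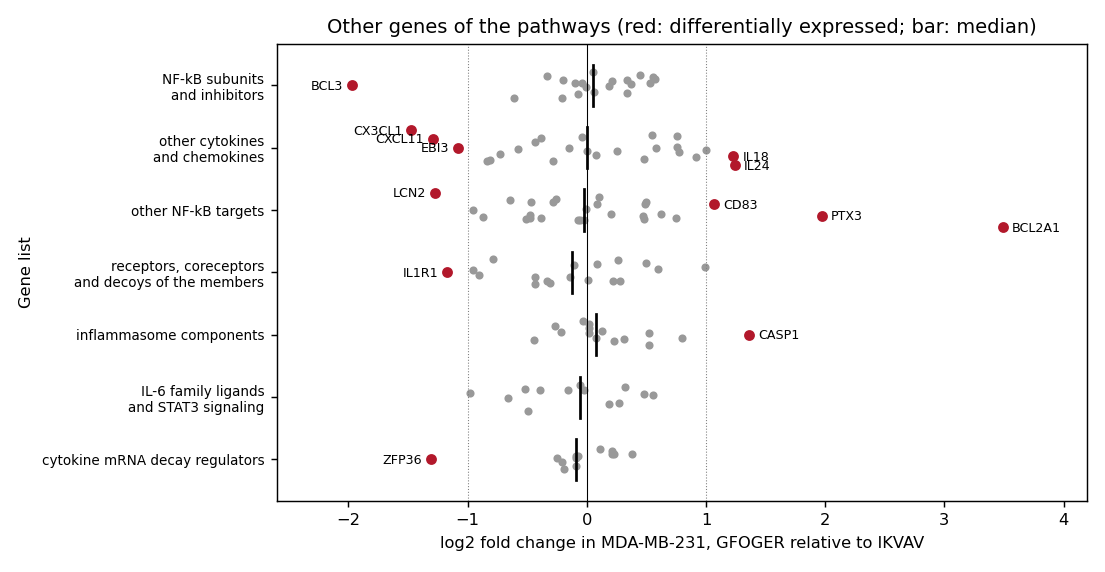
The log2 fold change of GFOGER relative to IKVAV in MDA-MB-231 cells (x axis) for the tested genes of the 7 pathway lists (y axis); each point is a gene, red points passed the test (adjusted p below 0.05 and more than 2-fold) and are named, black bars are list medians and dotted lines mark 2-fold. The 6 genes that rose and 7 that fell are spread over 6 of the 7 lists, with BCL2A1 (3.49) and BCL3 (-1.97) farthest out.

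Of the 20 NF-κB subunits and inhibitors, 0 rose and 1 fell. BCL3, an atypical IκB protein that binds NF-κB dimers in the nucleus, was at 17.8, 14.4 and 23.7 cpm with GFOGER and at 65.5 and 79.8 cpm with IKVAV, and fell by 1.97 on the log2 scale (SE 0.158, adjusted p = 6.3e-08). NFKBIA, which encodes the inhibitor IκBα and is itself a target of NF-κB, was at 120.1 to 142 cpm with GFOGER and at 192 and 207 cpm with IKVAV, a log2 fold change of -0.61 (adjusted p = 7.61e-05) that did not reach 2-fold. TNFAIP3, which encodes the feedback inhibitor A20, was at 52.9 to 61.8 cpm with GFOGER and at 56.7 and 60.8 cpm with IKVAV, with overlapping groups and a log2 fold change of -0.04 (adjusted p = 0.799). RELA, the main activating subunit, had a log2 fold change of -0.01. By the adjusted p alone, without the 2-fold threshold, 7 genes of this list were higher with GFOGER and 3 lower, BCL3 and NFKBIA among the latter. By the same threshold 3021 of all 14092 genes tested were higher and 3019 lower, and whether the list differs from them was not tested. The 7 of the list were the subunits NFKB1 (0.34), NFKB2 (0.56) and RELB (0.45) and the inhibitors NFKBIE (0.34), TNIP1 (0.53), TNIP2 (0.37) and CYLD (0.57). Each value is a log2 fold change.

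Among 27 other NF-κB targets tested, 3 rose and 1 fell. PTX3, a soluble pattern recognition molecule, was at 92.4, 91.6 and 89.9 cpm with GFOGER and at 25.6 and 20.7 cpm with IKVAV (log2 fold change 1.97, adjusted p = 3.56e-09). BCL2A1, an antiapoptotic member of the BCL2 family, was at 3.07 to 5.5 cpm with GFOGER and at 0.583 and 0.181 cpm with IKVAV (log2 fold change 3.49, adjusted p = 1.58e-05). Its value was 2.87 without IKVAV replicate 2 and 4.52 without IKVAV replicate 1. CD83, a marker of activated immune cells, rose by 1.07 on the log2 scale. LCN2, an iron-sequestering lipocalin, was at 65.3 to 71.7 cpm with GFOGER and at 159 and 168 cpm with IKVAV and fell by 1.27 on the log2 scale. The adhesion receptor ICAM1 (log2 fold change -0.64, adjusted p = 1.84e-05) and the prostaglandin synthase PTGS2 (-0.48, adjusted p = 0.00124) were lower with GFOGER by less than 2-fold, and the adjusted p of PTGS2 was 0.0761 without IKVAV replicate 2. VCAM1, another adhesion receptor, passed both thresholds without GFOGER replicate 3 alone (-1.32, adjusted p = 0.0358). Widely used NF-κB targets therefore lay on both sides of 0.

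Of 25 other cytokines and chemokines tested, IL24, a cytokine of the IL-10 family, rose by 1.24 and IL18, which like IL-1β is processed by CASP1, rose by 1.23 on the log2 scale. The T cell chemokine CXCL11 fell by 1.29, the membrane-bound chemokine CX3CL1 by 1.47 and EBI3, a subunit of IL-27 and IL-35, by 1.08. EBI3 kept its direction but was within 2-fold without GFOGER replicate 1 (-0.91) or IKVAV replicate 1 (-0.99). CSF2, which encodes GM-CSF, was at 66.7 to 69.9 cpm with GFOGER and at 40.2 and 31.0 cpm with IKVAV. Its log2 fold change was 0.92 (adjusted p = 1.99e-05), just within 2-fold. The value was 1.12, past 2-fold, without IKVAV replicate 1, which leaves a single library with IKVAV. It was also 1.12 with a term for the 2 sets of libraries that the deposited RPKM values imply (the RPKM set). In MDA-MB-231 cells that term takes out the same library, so the 2 settings are not separate checks. IL32 lay at the edge of 2-fold, with a log2 fold change of 1 (adjusted p = 9.81e-05) that was not called. It passed without GFOGER replicate 1 (1.01) or GFOGER replicate 2 (1.02), with no filter (1.01) and with all 4 conditions in one fit (1.01). Its value was 1.29 without IKVAV replicate 1 and 1.28 with the RPKM set as a term. The value of CXCL10 was -1.03 without IKVAV replicate 2. CCL2, a monocyte chemokine, had overlapping groups (0.08, adjusted p = 0.767).

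Of 18 receptor and adaptor genes tested, 0 rose and 1 fell past both thresholds. A second gene passed in most alternatives that left out a library. IRAK1, a kinase of IL-1 receptor signaling, passed without GFOGER replicate 1 (1.01) or GFOGER replicate 2 (1.04). Its value was 1.02 without IKVAV replicate 1 and with the RPKM set as a term, which takes out that same library. IL11RA passed without GFOGER replicate 3 (-1.10) and with a term for the replicate numbers, the replicate block (-1.11). In MDA-MB-231 cells that block also takes out GFOGER replicate 3, the only library of its number, so these are not separate checks. IL1R1, the signaling receptor of both IL-1 cytokines, was at 42.9, 40.9 and 39.2 cpm with GFOGER and at 90.8 and 93.1 cpm with IKVAV and fell by 1.17 on the log2 scale (SE 0.104, adjusted p = 2.07e-07). LIFR was at 63.3 to 84.2 cpm with GFOGER and at 123 and 136 cpm with IKVAV (log2 fold change -0.79, adjusted p = 6.08e-05), and IL11RA had a log2 fold change of -0.95 (adjusted p = 0.00331), both short of 2-fold. The shared receptor IL6ST was at 903 to 1162 cpm with GFOGER and at 884 and 892 cpm with IKVAV (0.26, adjusted p = 0.0492, but 0.0689 by DESeq2 and up to 0.233 with the RPKM set), the receptor antagonist IL1RN had a log2 fold change of 0.22 (adjusted p = 0.491), and IL6R, the specific receptor of IL-6, one of 0.60 (adjusted p = 0.21). The chemokine receptors CXCR1 and CXCR2 had at most 0.0617 and 0.0603 cpm in any MDA-MB-231 library, below the floor, and were not tested. Of the genes named here that are not receptors, SOCS3, the feedback inhibitor of gp130 signaling, had a log2 fold change of -0.49 (adjusted p = 0.0132), with an adjusted p of 0.0782 without GFOGER replicate 1 and 0.137 without IKVAV replicate 1.

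Of 15 inflammasome components tested apart from NLRP3, 1 rose. CASP1 was at 4.86, 3.83 and 2.96 cpm with GFOGER and at 1.94 and 1.09 cpm with IKVAV, with a log2 fold change of 1.36 (SE 0.336, adjusted p = 0.00388) that was no longer past the thresholds without IKVAV replicate 2 (0.99, adjusted p = 0.0758). Without that library NAIP, a sensor of another inflammasome, passed instead (-3.69, adjusted p = 0.0256). The adaptor PYCARD was at 3.25 to 3.89 cpm with GFOGER and at 3.43 and 4.64 cpm with IKVAV and did not pass (-0.22, adjusted p = 0.513). Among 13 regulators of cytokine mRNA decay, ZFP36, whose protein tristetraprolin promotes the decay of cytokine transcripts, was at 37.0, 45.1 and 56.8 cpm with GFOGER and at 102 and 126 cpm with IKVAV and fell by 1.31 on the log2 scale (adjusted p = 2.31e-06). It was the only one of them past both thresholds, and 0 of 13 genes of the IL-6 family and STAT3 list tested passed them. In that list CISH, a SOCS family inhibitor of cytokine signaling, passed without GFOGER replicate 3 (-1.48, adjusted p = 0.0219). It also passed with the replicate block (-1.5), which takes out the same library.

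**Figure D4:**
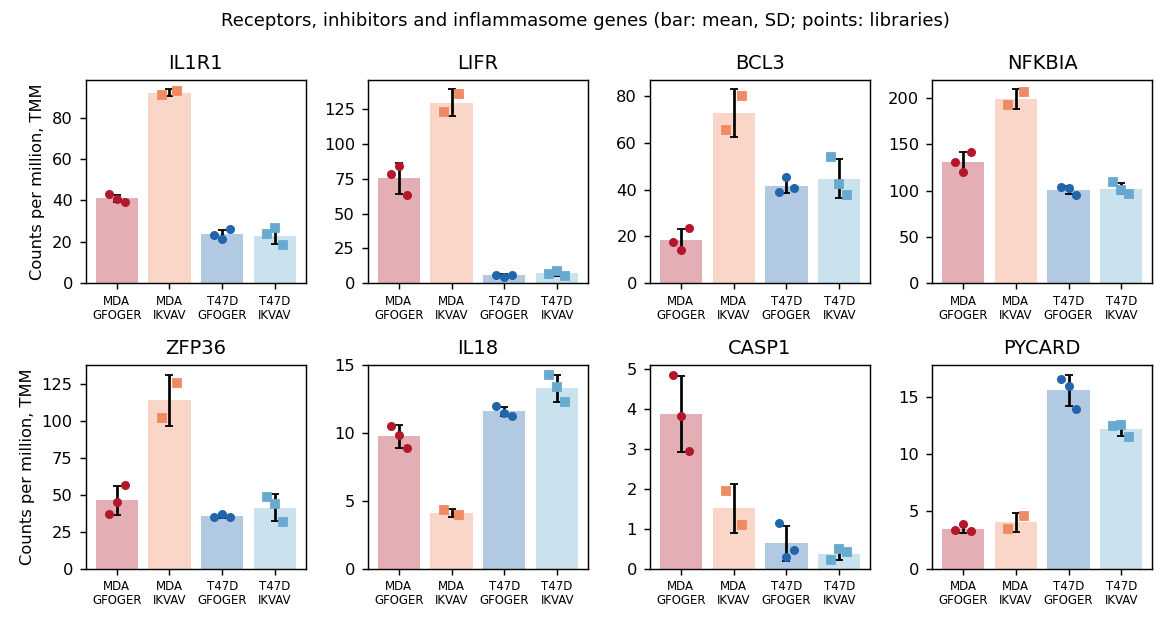
Level in cpm after TMM normalization (y axis, from 0) of 8 receptors, inhibitors and inflammasome genes in each condition (MDA, MDA-MB-231); bars are means, error bars SD and points libraries (n = 3, or 2 for MDA-MB-231 with IKVAV). IL1R1, LIFR, BCL3, NFKBIA and ZFP36 were lower and IL18 and CASP1 higher with GFOGER in every MDA-MB-231 library, while PYCARD overlapped, and in T47D cells none of these genes passed the test.

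Whether the mimics acted differently in the 2 lines was tested on the pathway genes by the interaction of cell line and mimic, which the members could not enter. Of 134 tested, 4 were positive and 5 negative past both thresholds (2.99% and 3.73%), against 2.25% and 4.17% of all 15320 genes. The positive ones included PTX3 and BCL2A1, whose interactions rest on few reads in T47D cells. Neither was tested when at least 10 counts were asked for in every library. LCN2 had the most negative interaction among the pathway genes, at -2.12. It fell with GFOGER in MDA-MB-231 cells, while in T47D cells it was at 97.8 to 110.2 cpm with GFOGER and at 37.6 to 68.5 cpm with IKVAV without overlap, though that contrast alone missed the threshold (adjusted p = 0.0839). For IL1R1, BCL3 and ZFP36 the T47D groups overlapped, and their interactions were -1.21, -1.86 and -1.09. That of ZFP36 was short of 2-fold without MDA-MB-231 GFOGER replicate 1 (-0.97), MDA-MB-231 IKVAV replicate 2 (-0.94) or T47D IKVAV replicate 3 (-0.93). Between the lines, of 134 pathway genes 65 (48.5%) were called higher in the MDA-MB-231 line and 15 (11.2%) higher in the T47D line, against 23.7% and 22.6% of all 15320 genes. The former included PTGS2 with a log2 difference of 9.18, CSF2 with 9.19, ICAM1 with 4.37 and LIFR with 3.97. The latter included IL6R with -3.30 and PYCARD with -1.87. In T47D libraries PTGS2 had 3 to 14 reads and CSF2 0 to 4, so the differences of PTGS2 and CSF2 rest on few reads. Neither gene was tested when at least 10 counts were asked for in every library. The pathway genes called between the lines were then 48, against 80. The lists were chosen with earlier results of these data known, so nothing is read from the shares between the lines.

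Leukocytes, which also express many of these genes, should be absent from the cultures. Of the 12 leukocyte markers listed, CD3E, MS4A1 and FCGR3A had 0 reads in every MDA-MB-231 library, PTPRC had 1 to 10 and CD163 0 to 3. The summed level of the list was 14.1 to 17.4 cpm with GFOGER and 18.1 and 20.1 cpm with IKVAV, with CD14 the most abundant at 8.0 to 11.3 cpm, and was thus not higher in the GFOGER libraries. In T47D cells it was 2.86 to 5.37 cpm. Of the 3 markers tested in MDA-MB-231 cells 1 fell with GFOGER, LYZ (log2 fold change -1.10).

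The genes next to the members were examined as well. Within 200 kb of a member the table holds 61 other genes, of which 36 had at least 10 reads in some library and 0 overlapped a member. Of 30 tested in MDA-MB-231 cells, 0 rose and 3 fell with GFOGER, against 3.12% and 6.46% of all genes tested, so the counts are too small to set these neighbours apart. The 3 lie beside IL11: SGK110 (-2.0), SUV420H2, a histone methyltransferase (-1.22), and BRSK1, a kinase (-1.03). Beside IL1A, which differed by 1.4 on the log2 scale, SLC20A1, a phosphate transporter, had a log2 fold change of -0.70 and CKAP2L, a spindle protein, one of 0.82. LOC100506178 beside IL6 was at 29.9 cpm with GFOGER and at 27.4 cpm with IKVAV in MDA-MB-231 cells, and had 422 to 555 reads in those libraries against 0 to 2 in T47D libraries, under the floor. In T47D cells 0 of these neighbours passed both thresholds. UBE2S beside IL11, a ubiquitin-conjugating enzyme, was at 38.7 to 48.2 cpm with GFOGER and at 19.3 to 25.5 cpm with IKVAV there, a log2 fold change of 0.90 (adjusted p = 0.0204) short of 2-fold.

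The genes whose pattern over the 11 libraries was most like the mean of the 10 members, by Pearson correlation of log2 cpm, were NT5E (0.9995), which encodes the ectonucleotidase CD73, FUT8 (0.9992), a fucosyltransferase, LOC646576 (0.9992), SRPX (0.9992) and IL1RAPL1 (0.9991), an IL-1 receptor accessory protein-like gene. These values are a description and are carried mostly by the gap between the cell lines, which all 11 libraries share. NT5E was at 849, 850.1 and 742 cpm in MDA-MB-231 cells with GFOGER, at 391 and 348 cpm with IKVAV and at 0.653 to 1.15 cpm in T47D cells. With a prior count of 0.5 in place of 2, 2 of these 5 genes remained among the 5 most alike, so the list is not firm.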

How the data were processed

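The deposited table gives, per the labels and the file headers, read counts that are not normalized and RPKM values for each gene and library. The authors checked reads with FastQC, trimmed them with Trim Galore 0.4.4, aligned them to hg19 with TopHat2 2.1.0 and counted them on genes with HTSeq 0.6.1p1, and the submitters' processing notes also name SAMtools 1.4, bedtools 2.17 and edgeR 3.16.5. Libraries were stranded, poly(A) selected and single-end, while which annotation and strand setting HTSeq was given are not stated (not given in the sources used here), so reads of overlapping antisense genes may be mixed. The counts were used for all results. The deposited RPKM values imply library totals that fall into 2 sets, about which the sources say nothing. In the low set (MDA-MB-231 IKVAV replicate 1, T47D GFOGER replicates 1 to 3 and T47D IKVAV replicate 3) the counts exceed the implied total, at 296% to 309% of it, against 72.1% to 81.2% in the other libraries. This set was used only as an alternative term, since it partly follows the mimic in T47D cells.

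The table has 24656 entries for 23368 symbols. For a repeated symbol the entry with the highest count was kept, and of the 1288 entries left out 4 had a count. The 10 members and the 7 pathway lists were chosen with earlier results of these data known. Counts were analysed in R 4.3.3 with edgeR 4.0.16: TMM normalization, filterByExpr, glmQLFit and glmQLFTest, with Benjamini-Hochberg adjustment over all genes tested in a comparison. The mimics were compared in a separate fit for each line, and one fit of the 4 conditions served the line difference and the interaction. A gene was called differentially expressed at an adjusted p below 0.05 and more than 2-fold. The common biological coefficient of variation came to 0.0933 (MDA-MB-231) and 0.0975 (T47D).

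Genes named were the 10 members, 16 pathway genes set by name, the called genes of each list with the largest changes, neighbours within 200 kb with at least 10 reads, and the 5 genes most like the members. RELA, the 7 NF-κB genes below 2-fold, IL6R, IL11RA, IRAK1, IL32, CXCL10, VCAM1, NAIP, CISH, LYZ and the identity markers were added after their values were seen, as were the genes given for the difference between the lines and the interaction. Promoter sequences are those of RefSeq (table of GRCh38.p14), and their hg19 positions come from a single exact match to GRCh37. Shared 51-base words were counted in GENCODE transcripts for that build. Alternatives were DESeq2 1.42.0, a replicate block, upper-quartile or no normalization beyond library size, dropping the filter or asking for 10 counts throughout, a test against 2-fold, calls by adjusted p only, a joint fit, the RPKM set as a term, and leaving out single libraries.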

Additional observations from a re-analysis of the deposited data

Results flagged for a closer look

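A difference between the cell lines in the response to the mimics marked 9 pathway genes by a tested interaction and 1 member by the order of its libraries. Tested with edgeR's quasi-likelihood method, this interaction was positive for IL18 (1.44, adjusted p = 0.000135), IL32 (1.33, adjusted p = 0.00275), PTX3 (2.23, adjusted p = 0.0239) and BCL2A1 (5.24, adjusted p = 0.0256). It was negative for BCL3 (-1.86), TNFSF10 (-1.11), LCN2 (-2.12), IL1R1 (-1.21) and ZFP36 (-1.09). PTX3 and BCL2A1 were at 0.244 cpm or less in every T47D library, so their interactions rest on few reads there. Both dropped out of the test when at least 10 counts were asked for in every library. Calls were lost for ZFP36 without MDA-MB-231 GFOGER replicate 1 (-0.97), MDA-MB-231 IKVAV replicate 2 (-0.94) or T47D IKVAV replicate 3 (-0.93), and for TNFSF10 without T47D IKVAV replicate 1 or 2 (-0.98 each) and with the RPKM set as a term (-0.71). BCL2A1 lost the call without any one of 5 libraries, MDA-MB-231 IKVAV replicate 2, T47D GFOGER replicates 1 and 2 and T47D IKVAV replicates 1 and 2 (4.61 to 4.88, adjusted p = 0.0547 to 0.111). PTX3 lost it without T47D GFOGER replicate 1 or T47D IKVAV replicate 2 or 3 (1.85 to 2.02, adjusted p = 0.0672 to 0.11). IL6, a member, was higher with GFOGER in every MDA-MB-231 library (log2 fold change 0.32) and had fewer reads with GFOGER than with IKVAV in every T47D library (1 to 4 against 5 to 9), and this difference was not tested.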

How the results depend on the processing

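The direction of the 9 members higher with GFOGER in MDA-MB-231 cells was kept in every alternative run, and IL8 alone changed sign. The count of genes called in MDA-MB-231 cells, 1349, was 403 with the 2-fold threshold inside the test and 6040 by the adjusted p alone, and 1139 to 1483 when a library was left out. For the pathway genes, 13 called, these were 5, 61 and 14 to 16. With the 2-fold threshold inside the test IL1R1, ZFP36, CXCL11, IL18, IL24, EBI3, CD83 and CASP1 lost the call. Small values that turned sign were TNFAIP3 (0.01 with the RPKM set as a term and without GFOGER replicate 2 or IKVAV replicate 1; range -0.10 to 0.01 when a library was left out), PYCARD (0.02 without IKVAV replicate 2; range -0.41 to 0.02) and CCL2 (-0.19 without GFOGER replicate 1; range -0.19 to 0.24).

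In T47D cells the 3 genes called were 8 by DESeq2, 20 without a filter, 0 with 2-fold inside the test, 6 by the adjusted p alone, 49 with the RPKM set as a term, 5 with all conditions in one fit, and 0 to 94 when a library was left out, 94 without IKVAV replicate 3. Of the pathway genes 1 was called with the RPKM set, LCN2 (1.46), and 0 to 1 when a library was left out, P2RX7 (-1.22) without IKVAV replicate 3. The RPKM set separates T47D IKVAV replicate 3 alone from its replicates, and in MDA-MB-231 cells rests on IKVAV replicate 2, so these values rest on single libraries. Signs turned for T47D IL8 (-0.26 and -0.28 without GFOGER replicate 3 or IKVAV replicate 3; range -0.28 to 0.32), LIF (0.02 and 0.04 without GFOGER replicate 2 or IKVAV replicate 3; range -0.25 to 0.04) and CXCL1 (0.47 with the RPKM set, 0.08 and 0.15 without GFOGER replicate 2 or IKVAV replicate 1; range -0.33 to 0.15), and 0 of them passed the test in any. The members' median there was -0.30 to 0.05 when a library was left out.

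Between the lines, 7092 genes were called, 4091 with at least 10 counts in every library and 12947 by the adjusted p alone, and 80, 48 and 126 of the pathway genes. The members' median of 6.26 was 6.85 with at least 10 counts, which of the members LIF and CXCL1 passed. The interaction gave 983 and 3222 genes and 9 and 36 pathway genes for both thresholds and the adjusted p alone, with 797 to 1140 genes and 7 to 12 pathway genes when a library was left out.

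The deviations of same-numbered libraries had correlations of -0.0602 to 0.017, so no pairing by replicate number was seen. Such correlations cannot show whether the libraries were prepared in pairs. With the replicate block 1445 genes were called for the MDA-MB-231 contrast and 5 for the T47D one, with 15 and 0 of the pathway genes. In MDA-MB-231 cells the block takes out GFOGER replicate 3, which has no IKVAV library of its number. That fit leaves almost no spread between libraries to estimate, so its counts are no check of the MDA-MB-231 calls. In T47D cells 6 of the 10 members had too few reads to test. The causes of these shifts were not tested.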
